A study of Mus musculus with 2 samples.

Results

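The cytosolic ribosomal protein genes of mouse liver were compared between a library labelled as a liver-specific knockout of RORα (LKO) and a control library. Both came from male C57BL/6 mice that carried floxed Rora alleles and received a high-fat diet (HFD) for 12 weeks, starting at 6 weeks of age. The LKO mice were RORα f/f:Alb-Cre, in which the albumin promoter drives Cre recombinase in hepatocytes. Which liver cells lost the gene cannot be read from these data. The control mice were RORα f/f without the Cre transgene. RORα is a nuclear receptor that binds DNA and regulates transcription. Each genotype had 1 library, and the sources used here do not give how many animals a library holds. A difference therefore has no replicate behind it, no test was possible, and each interval below is a 95% exact (Clopper-Pearson) interval that covers counting error only. The members are the rows whose symbol is Rpl or Rps followed by a number, with an optional a, x, y or l and a final digit. This gave 80 of the 24421 genes in the tables, 48 of the large subunit and 32 of the small subunit. Of these, 7 have a symbol that ends in l or in l and a digit, which marks a paralog, and 73 do not.

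The cytosolic ribosome joins a small subunit, which reads the mRNA, to a large subunit, which forms the peptide bond. Each ribosome is built from ribosomal RNA and a copy of nearly every protein, so the genes for these proteins are known for being expressed together at high levels. Their mRNAs carry a run of pyrimidines at the 5′ end, the terminal oligopyrimidine (TOP) motif, through which mTORC1 and the RNA-binding protein LARP1 control their translation and stability. In hepatocytes, which secrete much of the plasma protein, ribosomes are abundant and line the rough endoplasmic reticulum.

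The 2 libraries held 131843686 counts (LKO) and 128201591 counts (control). The transcripts of a few secreted proteins took a smaller part of the counts in LKO, so levels are given as CPM, counts scaled to library size, with a TMM factor (trimmed mean of M-values) that matches the libraries on the bulk of genes. A gene was taken as measured from a summed count of 20 and a mean CPM of 1 upward, which held for 11137 genes. It was counted as higher or lower when the ratio of CPM, LKO over control, was at least 1.5-fold and its interval excluded 1. Scaling by total counts instead would raise every log2 ratio by 0.42. Rora itself, on chromosome 9, had 3677 counts in LKO and 3701 counts in control, a log2 ratio of −0.47, and −0.05 with total counts. Its total was not lost, and the tables hold no counts by exon, so the knockout label could not be checked. Directions below are therefore those of the library labelled LKO. The defining hepatocyte transcript Alb was at 91007 CPM in LKO and 117952 CPM in control, which fits the labelled tissue.

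Ribosomal protein genes were lower in LKO almost without exception. Of the 80 members 77 were measured, and 76 of the 77 had a log2 ratio below 0, against 50.3% of all measured genes. At least 1.5-fold lower were 68 of the 77 (88.3%), and 0 were higher. Among all measured genes 9.76% were lower and 10.5% were higher by this rule. The same 76 members also had fewer raw counts in LKO, although that library was the larger one. The median log2 ratio of the members was −0.81, which is 1.76-fold lower, against −0.00 over all measured genes. The SD of the log2 ratio was 0.23 over the members and 0.67 over all measured genes, which include many with low counts. Other lists had SDs close to that of the members, with 0.22 for elongation factors and 0.26 for respiratory chain and ATP synthase subunits. As this is bulk liver RNA, fewer cells of a type and less RNA per cell cannot be told apart.

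In raw counts the members summed to 1010742 in LKO and 1269219 in control. That was 0.767% (interval 0.765 to 0.768) of all counts in LKO and 0.990% (0.988 to 0.992) in control. The large subunit genes took 0.489% of counts in LKO and 0.618% in control. The small subunit genes took 0.277% in LKO and 0.372% in control. The lower share in LKO therefore stood in the counts themselves, before any scaling. Outside the 20 most abundant genes the members made up 1.15% of counts in LKO and 1.84% in control.

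**Figure D1:**
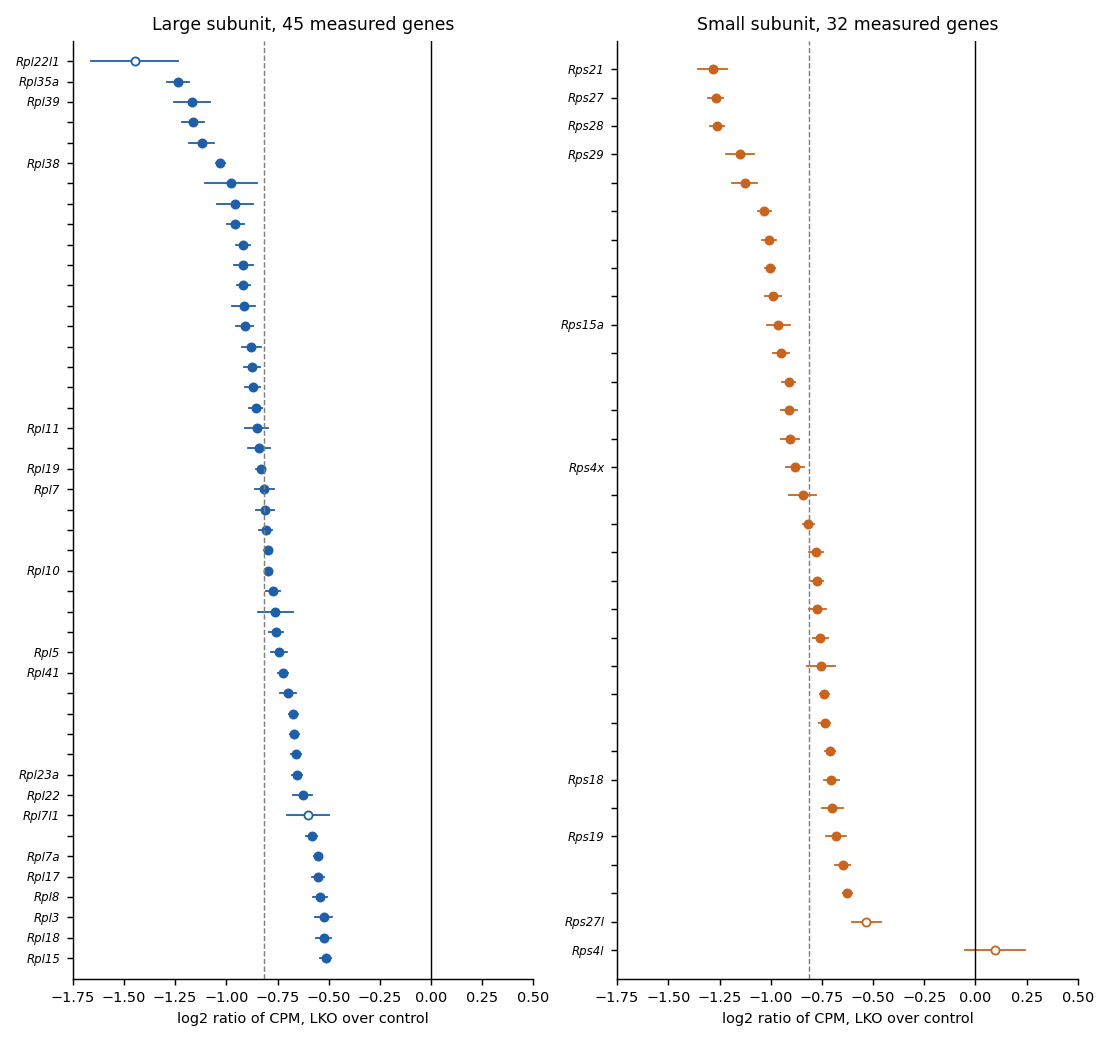
Log2 ratio of CPM, LKO over control (x axis), for each measured ribosomal protein gene (y axis, ordered by ratio, with symbols for part of the genes), with large subunit genes at left and small subunit genes at right. Bars are 95% intervals for counting error, open points are paralogs, the solid line is a ratio of 1 and the dashed line the family median of −0.81; every point except Rps4l lies left of the solid line.

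The size of the shift depended on the scaling and on gene length, while its direction did not. With total counts the members' median was −0.39 and 13 of 77 were at least 1.5-fold lower, and the median over all measured genes was then 0.42. The distance between the family and all genes is the same under both scalings. After removal of a trend of the ratio with the length and GC content of the transcript, the median was −0.59 and 40 members were at least 1.5-fold lower.

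Both subunits were lower to a like degree. The 45 measured large subunit genes had a median log2 ratio of −0.81, and 38 of them were at least 1.5-fold lower. The 32 measured small subunit genes had a median of −0.83, and 30 were at least 1.5-fold lower. Without paralogs the medians were −0.81 over 43 large subunit genes and −0.86 over 30 small subunit genes. All 30 of these small subunit genes passed 1.5-fold, against 36 of the 43 large subunit genes. The intervals of all 73 genes that are not paralogs lay below a ratio of 1, and the least precise of them, that of Rpl23, reached 1.09 times either side of the ratio.

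The lowest ratios among genes that are not paralogs belonged mostly to small proteins of both subunits. Rps21, a protein of the small subunit, had 16.4 CPM in LKO and 39.8 CPM in control, which is 2.43-fold (interval 2.32 to 2.56) lower. Rps27, a zinc finger protein of the small subunit, had 59.5 CPM in LKO and 143 CPM in control, or 2.41-fold (2.35 to 2.47) lower. Rps28, near the exit of the mRNA channel, had 69.7 CPM in LKO and 167 CPM in control, or 2.40-fold (2.34 to 2.46) lower. In each of these genes the control value was more than double the LKO value. In the large subunit Rpl35a, one of the genes mutated in Diamond-Blackfan anaemia, had 29.2 CPM in LKO and 68.8 CPM in control, which is 2.36-fold (2.27 to 2.44) lower. Rpl39, a very short protein that lines the peptide exit tunnel, had 11.0 CPM in LKO and 24.7 CPM in control, or 2.24-fold (2.11 to 2.39) lower. Rps29, another small zinc-binding protein of the small subunit, had 17.8 CPM in LKO and 39.5 CPM in control, or 2.22-fold (2.12 to 2.33) lower. Rpl34, whose log2 ratio was −1.16, ranked between Rpl39 and Rps29. Next was Rps3a1 at −1.13, which encodes a larger protein. In all, 14 members were at least 2-fold lower, 18.2% of those measured and 0 were at least 2-fold higher. Of all measured genes 2.62% were 2-fold lower and 3.83% were 2-fold higher.

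The highest ratios among genes that are not paralogs belonged to the large subunit, and all of them were still below 1. Rpl15, which sits among the core rRNA helices, had 149 CPM in LKO and 212 CPM in control, a log2 ratio of −0.52 and a 1.43-fold (1.40 to 1.46) lower level. Rpl18, mutated in some patients with Diamond-Blackfan anaemia, had 81.4 CPM in LKO and 117 CPM in control, also −0.52. Rpl3, whose extension reaches toward the peptidyl transferase centre, had 58.6 CPM in LKO and 84.4 CPM in control, a log2 ratio of −0.53. Rpl8, another protein near that centre, had 84.7 CPM in LKO and 123 CPM in control, a log2 ratio of −0.54. Rpl17, at the rim of the exit tunnel, had 122 CPM in LKO and 178 CPM in control, a log2 ratio of −0.55. These genes lay between −0.5 and the 1.5-fold threshold, and no ratio of the whole set of 73 came closer to 1 than that of Rpl15. With total counts the log2 ratio of Rpl15 was −0.10, still below 0. Of all measured genes, 12.3% had a lower ratio than Rpl15, the highest of the 73, and 4.59% had a lower ratio than the family median.

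The members just outside the threshold of 1.5-fold were Rpl13, with a log2 ratio of −0.58, Rpl7a with −0.55 and Rpl17 with −0.55. Just inside were the paralog Rpl7l1 with −0.60, and Rps2 and Rpl22 with −0.63 each. The count of 68 thus divides a continuous range.

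**Figure D2:**
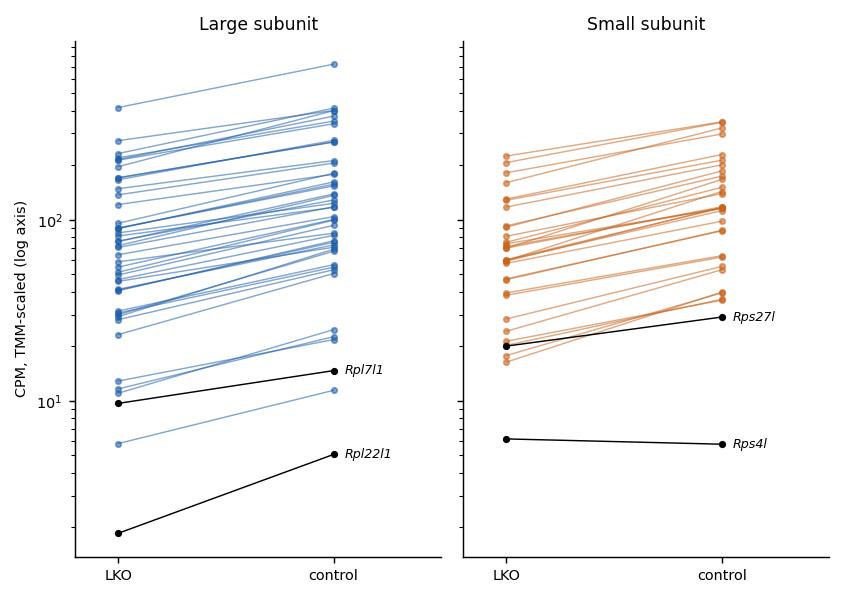
Level of each measured ribosomal protein gene in TMM-scaled CPM (y axis, log scale) in LKO and in control (x axis), 1 line per gene, with large subunit genes at left and small subunit genes at right. Black lines are the 4 measured paralogs; all other lines have their LKO end below their control end, and the Rps4l line runs almost level.

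By role, the genes that define known parts of the ribosome moved alike. Rpl5 and Rpl11 bind 5S rRNA and, when ribosome assembly is disturbed, the p53 regulator Mdm2. Rpl5 had 70.5 CPM in LKO and 118 CPM in control, a log2 ratio of −0.74. Rpl11 had 31.3 CPM in LKO and 56.5 CPM in control, a log2 ratio of −0.85. Rps6, the substrate of the S6 kinases downstream of mTORC1, had 128 CPM in LKO and 214 CPM in control, a log2 ratio of −0.74. It therefore lay close to the family median, as did Rpl10, which joins the large subunit at a last step of its maturation. Rpl10 had the highest count of all members, with 63636 counts in LKO and 80269 counts in control, or 417 CPM in LKO and 724 CPM in control, and a log2 ratio of −0.80.

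Of 9 genes for proteins around the rim of the peptide exit tunnel, 8 were at least 1.5-fold lower, and their median log2 ratio was −0.83. They ranged from Rpl39 at −1.17 to Rpl17 at −0.55. Of 14 genes for proteins of the small subunit head, all 14 were at least 1.5-fold lower, with a median of −0.80, from Rps28 at −1.26 to Rps19 at −0.68. Rps19, the first gene found mutated in Diamond-Blackfan anaemia, a failure of red cell production, had 39.5 CPM in LKO and 63.4 CPM in control. Of 22 members linked to that disease, 19 were at least 1.5-fold lower and the median was −0.80. These lists overlap and their medians lie within 0.02 of the family median, so none of them stood apart from it.

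The family is spread over 19 chromosomes, with at most 13 members on one of them, chromosome 7. The X chromosome holds 4 members, Rpl10, Rpl36a, Rpl39 and Rps4x. All 4 were at least 1.5-fold lower, with a median log2 ratio of −0.84. The lower level was therefore not limited to a chromosome.

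Ribosomal proteins whose symbols fall outside the rule had the same direction. All 8 that are in the tables were at least 1.5-fold lower, with a median of −0.77. Among them are the stalk proteins, which recruit the translation factors. Rplp0 had 162 CPM in LKO and 261 CPM in control, Rplp1 had 93.2 CPM in LKO and 174 CPM in control, and Rplp2 had a log2 ratio of −0.79. Fau, which encodes a ribosomal protein fused to a ubiquitin-like protein, was 1.59-fold lower. Rpsa had a log2 ratio of −0.79, Rpl36al of −0.87, and the scaffold protein gene Gnb2l1 (also called Rack1) of −0.75.

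The 7 paralogs differed more among themselves than the other members did. Rpl3l, known from heart and skeletal muscle, had 12 counts in LKO and 16 in control, below the limit for a measured gene. Rpl10l and Rpl39l, known from testis, had 1 and 0 counts in LKO and 0 counts each in control, where 3 counts is the limit that a count of 0 allows. Rpl22l1 had the lowest ratio of all members, and Rps4l was the only member with a ratio above 1. These 2 were also the only measured members over 1.5-fold away from the family median. They had the lowest mean CPM of the measured members, and their intervals were the widest.

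Rpl22l1 encodes a paralog of Rpl22, and in mice Rpl22 is known to hold its expression down. It had 283 counts in LKO and 561 counts in control, or 1.86 CPM in LKO and 5.06 CPM in control, which is 2.73-fold (2.36 to 3.16) lower. Rpl22 had 45.7 CPM in LKO and 70.6 CPM in control, which is 1.54-fold lower. Rpl22l1 thus made up 3.90% of the counts of the pair in LKO and 6.69% in control. The coding sequences of the pair are 67.5% identical.

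Rps27l, a target of p53, went the other way relative to its partner. It had 20.1 CPM in LKO and 29.0 CPM in control, which is 1.45-fold (1.38 to 1.52) lower, while Rps27 was 2.41-fold lower. The share of Rps27l in the counts of the pair was 25.2% in LKO and 16.8% in control. RefSeq lists 4 curated transcripts for Rps27l and 2 for Rps27, and a read may be counted once per transcript, so the size of this share is uncertain in both libraries. Rpl7l1 had 9.69 CPM in LKO and 14.7 CPM in control, 1.52-fold (1.41 to 1.63) lower, and Rpl7 had 41.3 CPM in LKO and 72.7 CPM in control, 1.76-fold lower. Its share of the pair was 19.0% in LKO and 16.8% in control.

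Rps4l is annotated as a transcribed processed pseudogene, an intronless copy of the X-linked Rps4x at chr6:148354656-148355598 on the plus strand (GRCm38). It had 940 counts in LKO and 639 counts in control, or 6.16 CPM in LKO and 5.76 CPM in control. With TMM scaling the ratio was 1.07 (interval 0.966 to 1.18), so the gene was called neither higher nor lower. Rps4x had 47.2 CPM in LKO and 86.9 CPM in control, which is 1.84-fold (1.79 to 1.90) lower. Rps4l took 11.5% of the counts of the pair in LKO and 6.22% in control. With total-count scaling the log2 ratio of Rps4l was 0.52 and that of Rps4x was −0.46, where the median over all measured genes was 0.42.

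**Figure D3:**
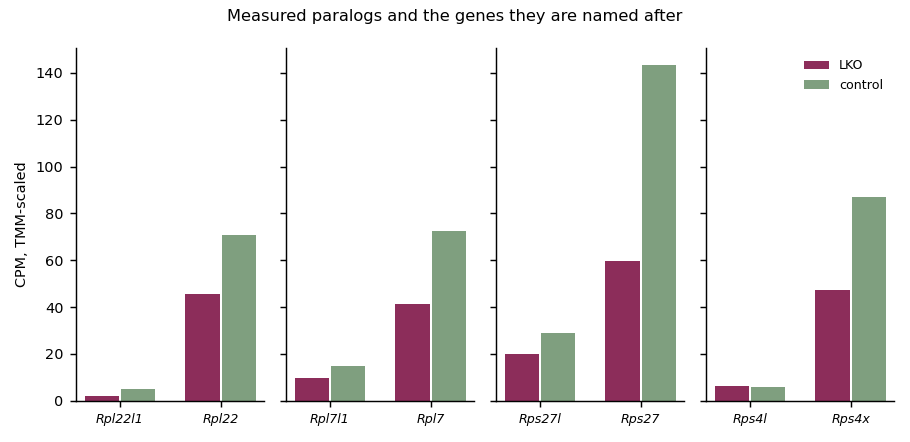
Level in TMM-scaled CPM (y axis, from 0) of the 4 measured paralogs and the genes they are named after (x axis), with LKO left of control for each gene. Each value is 1 library; the partner genes are all lower in LKO, whereas Rps4l stands at 6.16 CPM in LKO and 5.76 CPM in control.

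How far a paralog can be told from its partner depends on how many bases differ. The first 60 coding bases of 2 such families are shown because the ratios of the copies part from their partners in these families. They were read from GENCODE M21 transcripts (GRCm38), and capitals mark bases that differ from the gene the copy is named after.
Rps4x: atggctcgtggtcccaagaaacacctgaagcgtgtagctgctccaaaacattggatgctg
Rps4l: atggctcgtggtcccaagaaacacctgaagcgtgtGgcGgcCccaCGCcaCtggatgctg
Rps27: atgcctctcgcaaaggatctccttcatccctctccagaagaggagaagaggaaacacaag
Rps27rt: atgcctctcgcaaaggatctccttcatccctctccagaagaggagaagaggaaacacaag
Rps27l: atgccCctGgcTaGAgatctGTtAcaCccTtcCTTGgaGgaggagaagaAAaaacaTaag
Rps4l differs from Rps4x at 7 of these bases, and over the whole open reading frame the pair is 79.8% identical. Rps27l differs from Rps27 at 18 of them and is 76.1% identical to it over the whole frame. Rps27rt, a retrogene on chromosome 9 outside the symbol rule, has no differing base over all 255 aligned bases. Reads from Rps27 and Rps27rt therefore cannot be told apart within the coding sequence, whereas the other copies differ from their partners at many bases.

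The counts of such near-identical copies move as 1 value. Rps27rt had 4525 counts in LKO and 7923 counts in control, a log2 ratio of −1.27, the same as Rps27. The count of Rps27 was 2.01 times that of Rps27rt in LKO and 2.01 times in control, and RefSeq lists 2 curated transcripts for Rps27 and 1 for Rps27rt. Rpl34 was 3.02 times its pseudogene Rpl34-ps1 in LKO and 3.03 times in control, with 3 curated transcripts against 1. Since a read may thus be counted at more than 1 copy or transcript, the level of every member with several annotated transcripts or close copies is uncertain, and so are the shares of paralogs in their pairs. Such repeats also make the intervals too narrow.

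Ribosomal protein genes have many processed pseudogenes, so the share of sequence found elsewhere was computed for each member. The median measured member shared 51.7% of its 50-base windows with another annotated gene, and Rps27 shared the most, with 98.6%. The 18 measured members with under 30% shared had a median log2 ratio of −0.70, and 14 of the 18 were at least 1.5-fold lower. The 18 measured members with at least 80% shared had a median of −0.79.

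Within the family the ratio went with the length of the protein. The 10 measured members with under 300 coding bases had a median log2 ratio of −1.14. Those with 300 to 450 bases had −0.88 (26 genes), those with 450 to 600 bases −0.77 (19 genes), and those with 600 to 900 bases −0.81 (19 genes). The 2 longest, Rpl3 and Rpl4, had −0.59. Over 76 members Pearson's r between log2 coding length and log2 ratio was 0.44 and Spearman's rho was 0.44, a description across genes that share both libraries. Some members stood apart from this. The paralog Rps27l, with 252 coding bases, had the highest log2 ratio of the class under 300 bases, −0.53. Rpl41 also lay above its class: its coding sequence of 75 bases is the shortest, yet its log2 ratio was −0.72, with 167 CPM in LKO and 275 CPM in control. Rps3a1 stood apart on the other side, with a log2 ratio of −1.13 among genes of 600 to 900 coding bases.

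Other genes showed a trend with length too. Genes outside the family had a median log2 ratio of −0.35 under 300 coding bases (219 genes), −0.25 from 300 to 450 (524 genes), −0.18 from 450 to 600 (639 genes) and −0.08 from 600 to 900 (1456 genes). In each of these classes the members' median was lower, by between 0.60 and 0.78 on the log2 scale, with no steady change of this gap with length. Of other genes under 300 coding bases 32.0% were at least 1.5-fold lower, and of those from 600 to 900 bases 9.48%. Once a trend with coding length and GC content, fitted to the other genes, was removed, the members' median was −0.64 with 49 of 76 at least 1.5-fold lower. Pearson's r with coding length was then −0.08, so the trend of the other genes was large enough to take up that of the members. What in the samples or libraries goes with length was not tested.

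**Figure D4:**
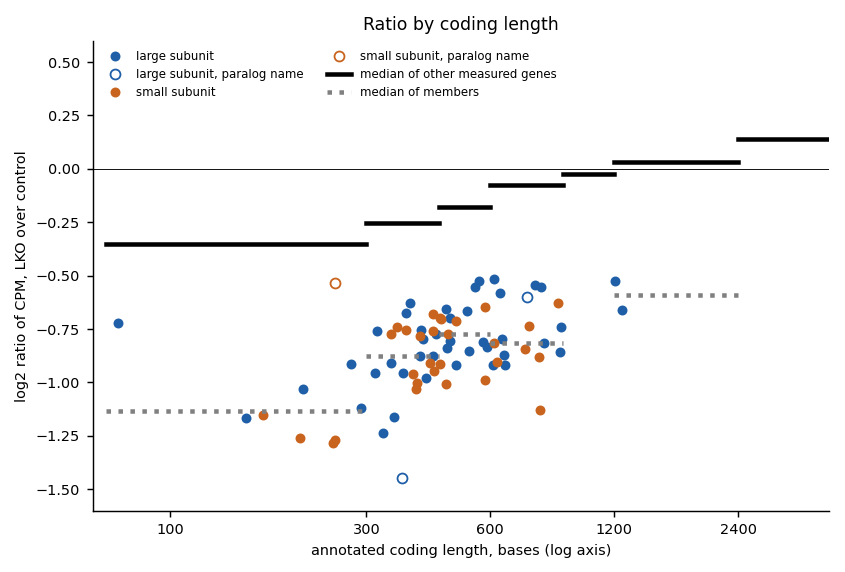
Log2 ratio of CPM, LKO over control (y axis), against annotated coding length in bases (x axis, log scale) for the measured ribosomal protein genes. Dotted lines are medians of the members and solid black lines medians of all other measured genes in each length class; the members lie below the other genes in every class that holds them, with −1.14 against −0.35 under 300 bases.

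With expression level in control, the log2 ratio had a Pearson's r of 0.13 and a Spearman's rho of 0.25 over the 77 measured members, again a description across genes of the same libraries. Members with a mean level under 10 CPM had a median log2 ratio of −0.98 (3 genes), and those of 10 to 30 CPM had −0.84 (9 genes). Those of 30 to 100 CPM had −0.87 (31 genes), those of 100 to 300 CPM had −0.77 (31 genes) and those above had −0.80 (3 genes). Other genes had medians between −0.09 and 0.02 in these classes. The order of the members by level was nearly the same in both libraries, with a Spearman's rho of 0.99 between log2 CPM in LKO and in control over 77 genes.

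Levels of different genes can be compared per length. Per kilobase of the longest annotated transcript, Rpl10 stood highest in LKO with 488 CPM per kb, against 847 in control. Rpl38, known for its role in the translation of Hox mRNAs in the mouse embryo, had 430.4 CPM per kb in LKO and 879 in control. RefSeq lists 4 curated transcripts for Rpl38 and 1 for Rpl10, and if reads are counted once per transcript, this order is not reliable. Rpl19 had 309 CPM per kb in LKO and 551 in control, and Rpl23a had 305 in LKO and 480.5 in control. Rpl7a had 299 in LKO and 440 in control, and Rpl41 had 286 in LKO and 472 in control. These 6 genes were the highest in both libraries. At the low end Rps15a had 5.47 CPM per kb in LKO and 10.7 in control, and Rpl23 had 5.49 in LKO and 10.8 in control. Rps3 had 10.6 in LKO and 19.1 in control, and Rpl35 had 12.3 in LKO and 23.9 in control. The same 4 genes were lowest in both libraries. The range over the 73 genes that are not paralogs was 89.2-fold in LKO and 82.3-fold in control. These levels depend on the annotation: the longest transcript of Rps15a has 5179 bases for a coding sequence of 390 bases. Per kilobase of coding sequence the range was 161-fold in LKO and 135-fold in control, with Rpl23 lowest and Rpl41 highest.

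The starts of the genes were read for motifs, since TOP mRNAs begin with pyrimidines and RORα binds the half-site AGGTCA. RefSeq (GRCm38.p6) gave 72 windows for 60 members, each with 250 bases before and 50 bases from the annotated start. A pyrimidine run of at least 8 bases, within 20 bases before and 30 bases after the start, was found in 34 of the 72 windows (47.2%), against 19.0% of 32851 windows of all genes. AGGTCA on either strand was found in 10 windows (13.9%), against 16.3% of all. TAGGTCA, a longer form that contains it, was found in 0 of the members' windows and in 2.61% of all. CCGGAAG, a core of sites for ETS factors, was found in 25 windows (34.7%), against 8.86% of all, and TATAAA in 6 (8.33%), against 13.6%. A match is a description of the letters and not a site.

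The starts of 3 genes near the low end and 3 near the high end of the ratios, each with a single window in RefSeq, are shown to compare their pyrimidine runs, with 30 bases before the annotated start and 30 from it. Capitals mark the longest pyrimidine run from 20 bases before to 30 bases after the start.
Rpl22l1 (chr3:28805478-28805537, plus strand): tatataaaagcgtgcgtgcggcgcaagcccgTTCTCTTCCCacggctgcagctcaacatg
Rps27 (chr3:90213619-90213678, minus strand): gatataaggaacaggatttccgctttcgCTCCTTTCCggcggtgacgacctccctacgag
Rps28 (chr17:33824533-33824592, minus strand): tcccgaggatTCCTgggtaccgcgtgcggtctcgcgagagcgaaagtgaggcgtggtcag
Rpl7a (chr2:26910777-26910836, plus strand): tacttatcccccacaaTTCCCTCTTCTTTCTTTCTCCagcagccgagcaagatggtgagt
Rpl18 (chr7:45718041-45718100, plus strand): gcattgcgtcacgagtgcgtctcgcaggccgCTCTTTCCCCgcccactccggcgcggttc
Rpl15 (chr14:18270957-18271016, minus strand): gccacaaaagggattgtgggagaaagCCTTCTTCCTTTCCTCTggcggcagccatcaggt
The run was 10 bases in Rpl22l1, 9 in Rps27 and 4 in Rps28, and 21 in Rpl7a, 10 in Rpl18 and 17 in Rpl15. Annotated starts can lie some bases away from the start used in liver. Over the 57 measured members with a window, the 33 with a run of at least 8 bases had a median log2 ratio of −0.83 and the 24 without had −0.85. The 5 measured members with AGGTCA had a median of −0.84 and the 52 without had −0.84. With CCGGAAG the median was −0.83 (23 genes) and without it −0.86 (34 genes), and with TATAAA it was −0.96 (6 genes) and without it −0.84 (51 genes).

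Other parts of the translation apparatus had medians closer to that of all genes. The 8 measured elongation factor genes had a median of −0.36. Of these, 2 (25%) were at least 1.5-fold lower and 0 were higher, against 9.76% and 10.5% of all measured genes. Eef1g had 52.9 CPM in LKO and 82.9 CPM in control, a log2 ratio of −0.65, and Eef2, which moves the ribosome along the mRNA, had 487 CPM in LKO and 536 CPM in control, a log2 ratio of −0.14. Of 39 genes of the initiation factor list 5 (12.8%) were lower, a share near the 9.76% of all measured genes, and 0 were higher. Their median was −0.21. This list also holds Eif4ebp1 and Eif4ebp2, and its rows Eif3j1 and Eif3j2 had the same counts, 841 in LKO and 801 in control. Of 18 mRNAs with a TOP motif that are not ribosomal proteins, 3 (16.7%) were lower and 0 higher, with a median of −0.30. The lists overlap: these 3 lower genes, Eef1b2, Eef1g and Eif3h, are also counted as lower in the elongation or initiation factor list. With total-count scaling, which adds the same amount to every log2 ratio, the medians of these 3 lists were 0.06, 0.21 and 0.11. The median over all measured genes was then 0.42. The sign of the list medians thus turns with the scaling, while they stay below the median of all genes under both.

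The genes that make ribosomes were shifted less than the family. Of 73 measured biogenesis factors 63 had a log2 ratio below 0. At least 1.5-fold lower were 12 (16.4%) and 1 (1.37%) was higher, against 9.76% and 10.5% of all measured genes. Their median was −0.31. With total counts it was 0.11, where the median over all measured genes was 0.42. Nob1, the nuclease that completes the small subunit rRNA, had 2.73 CPM in LKO and 5.34 CPM in control, a log2 ratio of −0.97. Dkc1, which modifies rRNA, had a log2 ratio of −0.89. Eftud1, which takes part in the release of Eif6 from the large subunit, was the 1 that was higher, with 8.29 CPM in LKO and 5.32 CPM in control. Of 34 measured genes of the RNA polymerase I and III machinery, which make rRNA and tRNA, 1 (2.94%) was lower and 3 (8.82%) were higher. Their median was 0.05. Their extremes were Polr1e at −1.19 and Taf1b at 1.42.

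The regulators of TOP mRNAs and of ribosome supply did not follow the family. Of 27 measured genes of mTORC1 and TOP mRNA control 1 (3.70%) was at least 1.5-fold lower and 3 (11.1%) were higher, with a median of 0.02. Among all measured genes 9.76% were lower and 10.5% were higher, so the share of higher genes was near that of all. Mtor, the kinase itself, had 26.6 CPM in LKO and 15.4 CPM in control, a log2 ratio of 0.79. Ddit4, an inhibitor of mTORC1, had 1.06 CPM in LKO and 3.46 CPM in control, a log2 ratio of −1.70, and Sesn2, another inhibitor, had 763 counts in LKO and 290 counts in control, a log2 ratio of 0.94. The third higher gene, Pdk1, encodes a pyruvate dehydrogenase kinase and is not itself a part of mTORC1. Of 13 measured genes of Myc and ribosomal stress 0 were lower and 4 (30.8%) were higher. Myc, which drives transcription of ribosomal protein and rRNA genes, had 26.8 CPM in LKO and 12.4 CPM in control, a log2 ratio of 1.11, opposite in sign to the family. Cdkn1a, a p53 target, had 25.9 CPM in LKO and 7.72 CPM in control, a log2 ratio of 1.75. The lowest of this list were Max at −0.28 and Mdm2 at −0.15. In all, 4 of its measured genes had a log2 ratio below 0 and 9 above. Of 7 measured S6 and p90 S6 kinase genes 0 were lower and 1 (14.3%) was higher: Rps6ka1, at 25.2 CPM in LKO and 14.2 CPM in control. Rps6kb1 was the lowest of the 7, with a log2 ratio of −0.57. That is 1.48-fold (1.36 to 1.62) lower, just short of the 1.5-fold threshold.

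**Figure D5:**
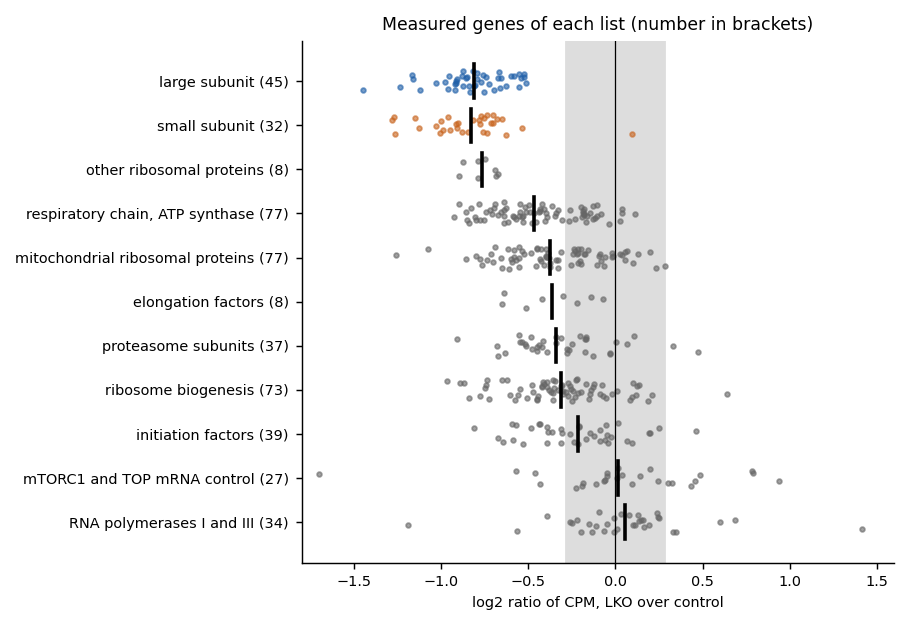
Log2 ratio of CPM, LKO over control (x axis), for the measured genes of each list (y axis, number in brackets); each point is a gene and each black bar a list median. The grey band is the middle 50% of all measured genes; both subunits lie left of it, with medians of −0.81 and −0.83, and the RNA polymerase and mTORC1 lists are centred near 0.

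Other large complexes were read beside the family. The 77 measured mitochondrial ribosomal protein genes had a median of −0.38, and 16 of them (20.8%) were at least 1.5-fold lower and 0 were higher. Their lowest was Mrpl47 at −1.26 and their highest Mrps9 at 0.28. Of 77 measured nuclear-encoded subunits of the respiratory chain and ATP synthase 25 (32.5%) were lower and 0 higher, with a median of −0.47. Of 37 measured proteasome subunits 4 (10.8%) were lower, a share near the 9.76% of all measured genes. Here too 0 were higher, against 10.5% of all, and the median was −0.34. The upper quartile of the cytosolic members' log2 ratios, −0.70, lay below the lower quartiles of these lists, −0.55, −0.64 and −0.48. With total counts the 3 medians were 0.04, −0.05 and 0.08, against 0.42 over all measured genes. The sign of the mitochondrial ribosomal and proteasome medians thus turns with the scaling, while all 3 stay below the median of all genes.

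Markers of other liver cells were read beside the family. Among all measured genes 9.76% were lower and 10.5% were higher by the 1.5-fold rule. Kupffer cells, the macrophages of the liver, had 5 measured markers, and all 5 were lower by the 1.5-fold rule with a median of −0.89. The 6 listed markers summed to 39.5 CPM in LKO and 73.8 CPM in control, with none at 0. Of 7 stellate cell and fibroblast markers 3 were higher and 0 lower, with a sum of 279 CPM in LKO and 198 CPM in control. Of 6 endothelial markers 0 were higher and 0 lower, with 147 CPM in LKO and 134 CPM in control. Of 7 hepatocyte markers 3 were lower, with a median of −0.37 that was 0.05 with total counts. None of the 8 B and T cell markers was measured, with 311 summed counts in LKO and 410 in control, and Cd3d was at 0 in control. Neutrophil markers held 24 counts in LKO and 10 in control, and S100a8 was at 0 in both. Markers of proliferating cells held 325 counts in LKO and 244 in control, with none of 4 measured. The part of the cell makeup in the lower level of ribosomal protein mRNAs was not tested.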

How the data were processed

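Liver RNA of 1 library per genotype was sequenced. Per the labels' protocols, libraries were made with a LEXOGEN mRNA-Seq kit from 500 ng of Trizol-extracted RNA. The authors deposited a table of raw counts by gene symbol for each library. Per the submitters' processing notes, TopHat, edgeR and build mm10 were used. How reads were counted, on which annotation, with or without strand, and what became of multiply aligned reads are points not given in the sources used here. Reads of overlapping or antisense genes may therefore be mixed.

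CPM were scaled by TMM (edgeR 4.0.16, R 4.3.3), with factors of 1.16 for LKO and 0.865 for control. Ratios carry 95% Clopper-Pearson intervals conditional on the summed count (scipy 1.17.1), for counting error only, since PCR copies are not independent molecules. A count of 0 allows up to 3 counts, which is 0.0197 CPM in LKO and 0.0271 CPM in control. No p-value can be given with 1 library per group. The procedure was run on simulated Poisson counts with known fold changes. These hold no repeated reads, so the run cannot check how far such repeats make the intervals too narrow.

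Symbols were matched to GENCODE M21 (24055 of 24421) and RefSeq (24313), GRCm38, the assembly of mm10. Coding identity came from a global alignment of open reading frames (Biopython 1.88). Length and GC trends were removed by lowess smoothing (fraction 0.3, statsmodels 0.14.6) fitted without the members. Members, gene lists, markers and tests were chosen with earlier results of these data known. Genes were named by rank (the 6 highest and 6 lowest ratios, the 6 highest and 4 lowest levels per length), as paralogs with their partners, as departures of over 1.5-fold from the family median, and as the extremes of each list. Rps6, Rps2, Rps3a1, Rpl34, Rpl4, Rpl13, Rpl36a, Rps28, Mtor, Pdk1, Mnt, Gadd45a and the other members of structural lists were added after their values were seen. Of these, Rps28, among the 6 lowest ratios, and Mtor, an extreme of its list, also meet the naming rules. Some genes enter the counts and medians but are not reported here by name.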

Additional observations from a re-analysis of the deposited data

How the results depend on the processing

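No paired analysis was possible because each genotype has 1 library. The direction of the family median and the count of 0 members higher held under every alternative run. With total counts the medians were −0.39 for all members, −0.39 for the large and −0.41 for the small subunit, with 13 members at least 1.5-fold lower. With totals without the 20 most abundant genes they were −0.69, −0.69 and −0.71, with 56 lower. With the trend of transcript length and GC content removed they were −0.59, −0.57 and −0.60, with 40 lower. With coding length in its place, chosen after seeing the data, they were −0.64, −0.64 and −0.67, with 49 of 76 lower. Measured members with under 30% of windows shared, also chosen after seeing the data, gave −0.70 and 14 lower of 18. A threshold of 2-fold left 14 lower. Size factors of DESeq2 1.42.0, the upper quartile, TMM without ribosomal protein genes, no filter, a mean CPM of at least 10, added counts of 0.5 or 5 and leaving out paralogs kept 66 to 69 lower. The share of counts in LKO was 1.15% outside the 20 most abundant genes, 0.843% outside the Mup genes and 0.762% without paralogs, against 1.84%, 1.29% and 0.985% in control. Of 934 alternative values of 104 named genes, 622 lay inside the interval of the gene, and 0 called genes turned in sign. For the 73 members that are not paralogs, the counting intervals reach at most 1.09 times either side of the ratio. They are too narrow where reads are counted repeatedly. What 1 library per genotype cannot give is the spread between animals.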

Other observations

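Retrogenes and pseudogenes of ribosomal proteins outside the symbol rule were mostly lower as well, but their counts are not independent of their parent genes. Rpl37rt had 89 counts in LKO and 188 counts in control, 2.91-fold (2.25 to 3.78) lower. Rpl14-ps1 had 397 counts in LKO and 594 in control, 2.06-fold (1.81 to 2.34) lower. Of the 50-base windows of Rpl37, 31.3% occur in Rpl37rt, and of those of Rpl14, 49.3% occur in Rpl14-ps1, so reads of the parent genes can enter these counts. Rpl34-ps1 had 1512 counts in LKO and 2453 in control, 2.23-fold lower, beside its parent Rpl34, which was 2.24-fold lower. Rpl31-ps12 had 331 counts in LKO and 295 in control, and its log2 ratio of −0.29 was 0.13 with total counts. Its parent Rpl31 had a log2 ratio of −0.67. Rplp2-ps1 (62 counts in LKO, 105 in control), Rps15a-ps4 (52 counts in LKO, 60 in control), Rps15a-ps6 (47 in LKO, 32 in control) and Rps19-ps3 (6 in LKO, 3 in control) were not measured. 

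Of 10 measured host genes of small nucleolar RNAs, 2 (20%) were at least 1.5-fold lower and 1 (10%) was higher. Among all measured genes 9.76% were lower and 10.5% were higher. The median of these host genes was −0.30, and 0.12 with total counts. Nop56, which guides rRNA methylation, had 3.13 CPM in LKO and 5.70 CPM in control, and the non-coding Snhg17 had 4.24 CPM in LKO and 2.51 CPM in control. Of 3 red blood cell markers 1 was at least 1.5-fold lower and 0 were higher, with a median log2 ratio of 0.19. The lower one was Alas2, at 118 CPM in LKO and 230.1 CPM in control. Hba-a1 had a log2 ratio of 0.32 and Hbb-bs of 0.19.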
